A study of Bos taurus with 12 samples.

Results

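The glucocorticoid receptor and its mRNA targets were described in the mammary gland (MG) of 12 cows. The set holds 10 genes: the receptors NR3C1 and NR3C2, the enzymes HSD11B1 and HSD11B2, and the hormone-responsive genes FKBP5, TSC22D3, DUSP1, SGK1, ZBTB16 and CEBPD. They were found by matching the RefSeq accession of each probe on the array to the bovine RefSeq gene table. All 10 genes were found, with 25 probes, among 12639 named genes and 43653 probes. The cows were multiparous Holsteins in early lactation, at about 24 d in milk when the diets began. The 6 CONT cows kept free access to their lactation diet, and the 6 REST cows received for 4 d a ration in which barley straw made up 48% of the dry matter. All 12 cows were given 50 µg of LPS into 1 healthy rear gland on d 3, and the MG was biopsied 24 h later, so that the comparison is between diets within challenged cows and no unchallenged gland was measured. RNA was not pooled, and 1 array was made per cow.

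Cortisol enters cells freely and binds the glucocorticoid receptor, which waits in the cytoplasm in a complex with chaperones. The bound receptor moves to the nucleus, raises the transcription of genes such as FKBP5 and TSC22D3, and restrains inflammatory genes driven by NF-κB and AP-1. The enzymes HSD11B1 and HSD11B2 set the local supply of active hormone by making cortisol from cortisone and by the reverse step. In the mammary epithelium, glucocorticoids act together with prolactin and insulin to maintain milk protein synthesis, and plasma cortisol is known to increase after intramammary LPS.

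The 12 arrays lay on 3 slides of 4 arrays. Slide 1 held CONT cows 2, 4 and 5 and REST cow 1. Slide 2 held CONT cow 1 and REST cows 2, 4 and 5. Slide 3 held CONT cows 3 and 6 and REST cows 3 and 6. Feature Extraction, the scanner software, called 57.6 to 78.1% of the probes of an array well above background, and this is the background call meant here. All 6 measured markers of the mammary epithelium were well above background on every array, and so were the neutrophil marker list in 5 of 6 genes and the macrophage list in 5 of 5. In such bulk tissue, fewer cells of a type and less RNA per cell cannot be told apart. Values are given as log2 signal relative to the 75th percentile of the array, and log2 FC is the mean of REST minus the mean of CONT with its standard error.

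No probe of the 10 genes was called between REST and CONT. The Westfall-Young and the Benjamini-Hochberg adjusted p of limma were 1 for all 25 probes, against 0% of all probes called by either adjustment. At an unadjusted p under 0.05, ZBTB16 was the 1 gene of 10 by its brightest probe, against 2.64% of the brightest probes of named genes. Over single probes, 4 of 25 had an unadjusted p under 0.05, against 2.62% of all probes. These were 2 probes of FKBP5, 1 of TSC22D3 and that of ZBTB16, and probes of 1 gene are not independent of each other. The 10 genes were chosen with earlier results of these data known, so the shares beside their counts are descriptions and not tests. With slide as a block, 2 of 25 probes were under 0.05, both of TSC22D3, against 2.79% of all probes in that fit. The mean was higher in REST for 6 of 10 genes, where 43.5% of named genes were higher, and for 16 of 25 probes, where 46.1% of all probes were higher. The median log2 FC of the 10 genes was 0.09, against -0.03 over all named genes. The median was 0.23 with slide as a block, where 8 of 10 genes were higher, and under quantile normalization and normexp it was 0.03 and 5 of 10 were higher. No member probe separated the 2 diets without overlap, which 0.128% of all probes did. The genes varied between cows of a diet with a median SD of 0.60, compared with 0.44 over named genes.

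**Figure D1:**
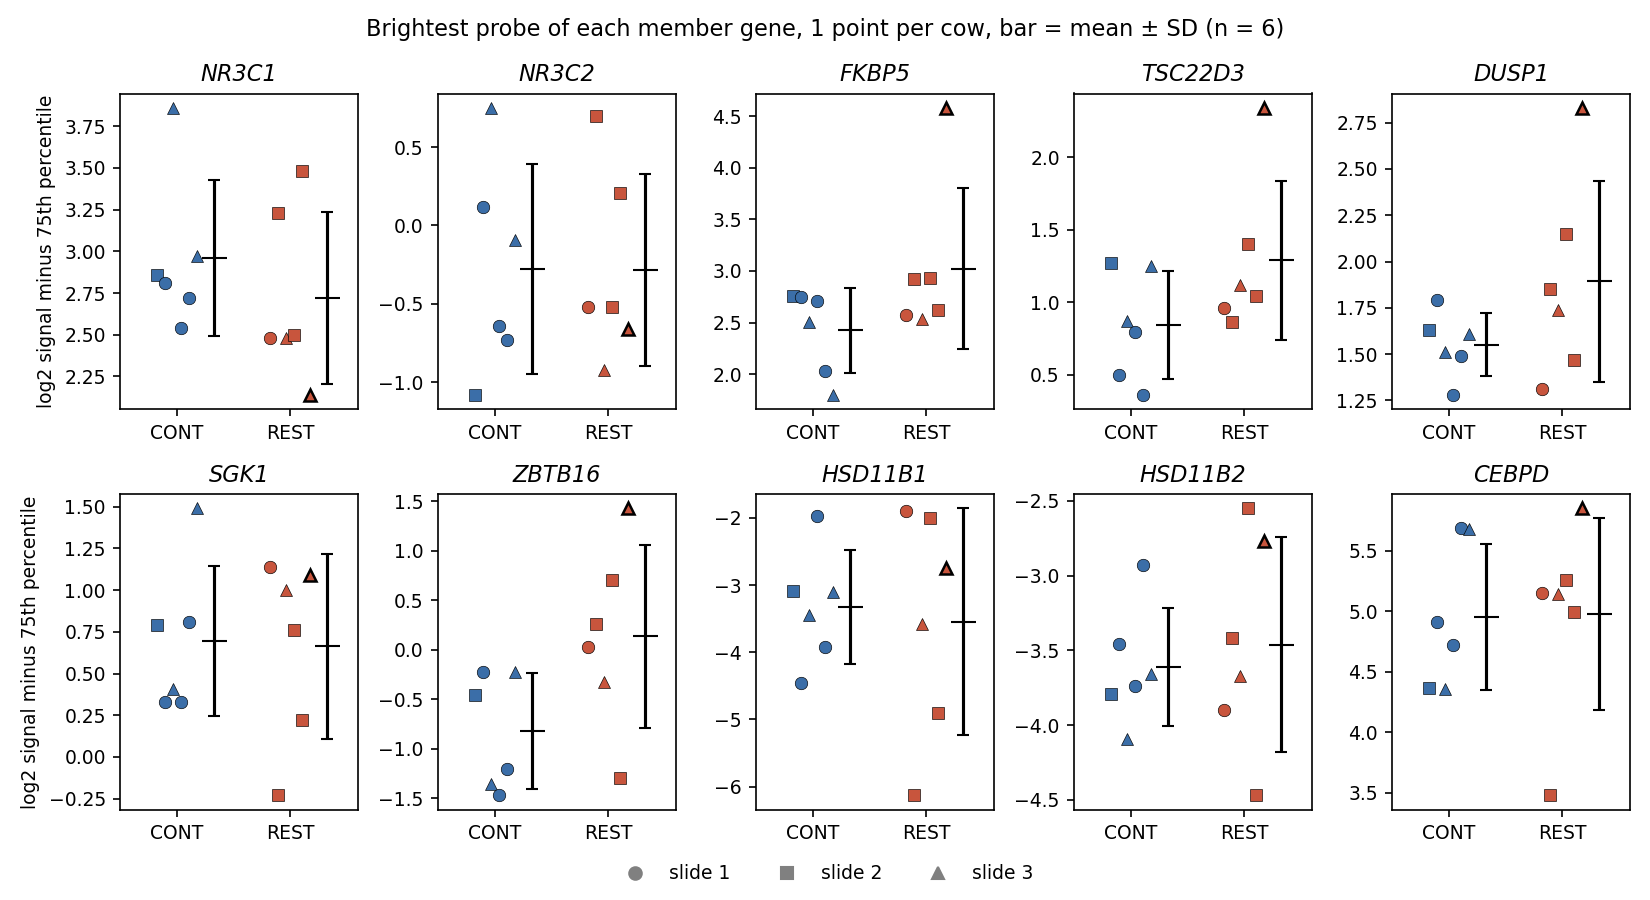
Log2 signal relative to the 75th percentile of the array for the brightest probe of each of the 10 genes, with 1 point per cow, the slide as the symbol and the mean ± SD of each diet (n = 6) beside the points. The diets overlap in all 10 panels, and REST cow 6 (heavy outline) is the highest point for FKBP5, TSC22D3, DUSP1, ZBTB16 and CEBPD and the lowest for NR3C1.

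The receptors were expressed in every biopsy, with no difference between the diets that passed the test. NR3C1 (NM_001206634), the glucocorticoid receptor, ranged from 2.54 to 3.86 in CONT (median 2.83) and from 2.14 to 3.48 in REST (median 2.49). CONT cow 3 was the highest of the 12 cows and REST cow 6 the lowest, and 4 of 6 REST cows lay below every CONT cow. REST minus CONT gave a log2 FC of -0.24 (SE 0.28), with an unadjusted limma p of 0.394 and an exact permutation p of 0.413. It was -0.22 within slide 1, 0.21 within slide 2 and -1.11 within slide 3, and came to -0.44 (SE 0.29) with slide as a block and to -0.06 without CONT cow 3. Of the other 3 probes of NR3C1, 2 had a negative log2 FC (-0.36 and -0.13) and the dimmest a positive one (0.09). NR3C2 (NM_001191349), the mineralocorticoid receptor, which also binds cortisol, ranged from -1.08 to 0.75 in CONT (median -0.36) and from -0.92 to 0.70 in REST (median -0.52). Both diets covered nearly the same range. Its log2 FC was -0.01 (SE 0.35, exact permutation p = 0.987), its within-slide values were -0.10, 1.21 and -1.12, and with slide as a block it was -0.12 (SE 0.40).

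The 2 enzymes of local cortisol supply were dim on the array. HSD11B1 (NM_001123032), which regenerates cortisol from cortisone, passed the background call on 5 arrays of CONT and 4 of REST. It ranged from -4.46 to -1.97 in CONT (median -3.27) and from -6.13 to -1.90 in REST (median -3.17). REST cows 2 and 5, both on slide 2, were the lowest of all cows at -6.13 and -4.91, and REST cow 1 was the highest. The SD was 1.69 in REST and 0.85 in CONT, and the log2 FC was -0.22 (SE 0.70, exact permutation p = 0.788). Its second probe gave -0.21. The sign of the HSD11B1 difference turned to 0.13 with slide as a block and to 0.30 without REST cow 2. The mean of 6 fibroblast marker genes was also lowest in REST cows 2 and 5, at 1.35 and 1.84, against 2.45 to 2.82 in CONT. Of these markers, COL1A1, COL1A2 and LUM had an unadjusted p under 0.05 and a lower mean in REST, and of these only LUM kept it with slide as a block. Their part in the HSD11B1 values was not tested. HSD11B2 (NM_174642), which inactivates cortisol and keeps NR3C2 free for aldosterone, passed it on 5 arrays of each diet. It ranged from -4.09 to -2.93 in CONT (median -3.70) and from -4.47 to -2.55 in REST (median -3.54). The highest and the lowest cow were both REST cows, and the log2 FC was 0.15 (SE 0.32, exact permutation p = 0.662). It was -0.07 under normexp background correction. The second HSD11B2 probe was not well above background on any CONT array and was so on 1 REST array, and no fold change is given for it.

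FKBP5, TSC22D3, DUSP1 and ZBTB16 had the largest positive log2 FC of the 10 genes, between 0.34 and 0.96. FKBP5 (NM_001192862) encodes a cochaperone that lowers the receptor's affinity for hormone and is itself induced by it. It ranged from 1.80 to 2.76 in CONT (median 2.61) and from 2.53 to 4.58 in REST (median 2.77). All 6 REST cows lay above the CONT mean, 3 of them above every CONT cow, and REST cow 6 stood far above the rest. The log2 FC was 0.60 (SE 0.34), a 1.51-fold difference, with an unadjusted limma p of 0.103 and an exact permutation p of 0.104. It was 0.08 within slide 1, 0.06 within slide 2 and 1.40 within slide 3, where REST cow 6 lay. Without REST cow 6 it was 0.29 (SE 0.21). The 3 other FKBP5 probes gave 0.62, 0.95 and 0.81, with unadjusted limma p of 0.0957, 0.0457 and 0.0479 and exact permutation p of 0.0931, 0.0649 and 0.0714. The last of these probes passed the background call on 3 arrays of CONT and 5 of REST.

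TSC22D3 (NM_001103342), also called GILZ, encodes a leucine zipper protein that binds NF-κB and AP-1 and takes part in the anti-inflammatory action of glucocorticoids. It ranged from 0.36 to 1.27 in CONT (median 0.83) and from 0.86 to 2.34 in REST (median 1.08). As for FKBP5, all 6 REST cows lay above the CONT mean and REST cow 6 was the highest, with 2 REST cows above every CONT cow. The log2 FC was 0.45 (SE 0.26), or 1.37-fold, with an unadjusted limma p of 0.114 and an exact permutation p of 0.117. Within slides it was 0.41, -0.16 and 0.68, and it was 0.24 without REST cow 6. A second TSC22D3 probe, also well above background on all 12 arrays, ranged from -0.87 to -0.33 in CONT (median -0.48) and from -0.52 to 0.32 in REST (median -0.11). For this probe 4 of 6 REST cows were above every CONT cow, and the log2 FC was 0.42 (SE 0.18), with an unadjusted limma p of 0.036 and an exact permutation p of 0.0325. The 2 dimmer probes gave 0.49 and 1.01, the latter well above background on only 2 arrays of each diet.

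DUSP1 (NM_001046452), the phosphatase that switches off p38 and JNK kinases, ranged from 1.28 to 1.79 in CONT (median 1.56) and from 1.31 to 2.83 in REST (median 1.79). The CONT cows lay close together (SD 0.17) and the REST cows were spread (SD 0.54), with REST cow 6 highest. Its log2 FC was 0.34 (SE 0.23, exact permutation p = 0.175). It was -0.21, 0.19 and 0.73 within slides 1, 2 and 3, and 0.16 without REST cow 6. The other probes of DUSP1 gave 0.24 and 0.55.

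ZBTB16 (NM_001037476), a zinc finger transcription factor also named PLZF that is strongly induced by glucocorticoids in many tissues, had the largest log2 FC of the 10 genes. It ranged from -1.47 to -0.22 in CONT (median -0.83) and from -1.30 to 1.43 in REST (median 0.15). Of the 6 REST cows, 4 lay above every CONT cow, REST cow 3 lay within the CONT range, and REST cow 5 was low at -1.30. The log2 FC was 0.96 (SE 0.41), or 1.94-fold, with an unadjusted limma p of 0.0384 and an exact permutation p of 0.0541, so that both tests of this 1 probe stood near the threshold before adjustment. It was positive within each slide, at 1.00, 0.34 and 1.35. With slide as a block it was 0.94 (SE 0.47), and without REST cow 6 it was 0.70 (SE 0.38), and neither fit kept its unadjusted p under 0.05.

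**Figure D2:**
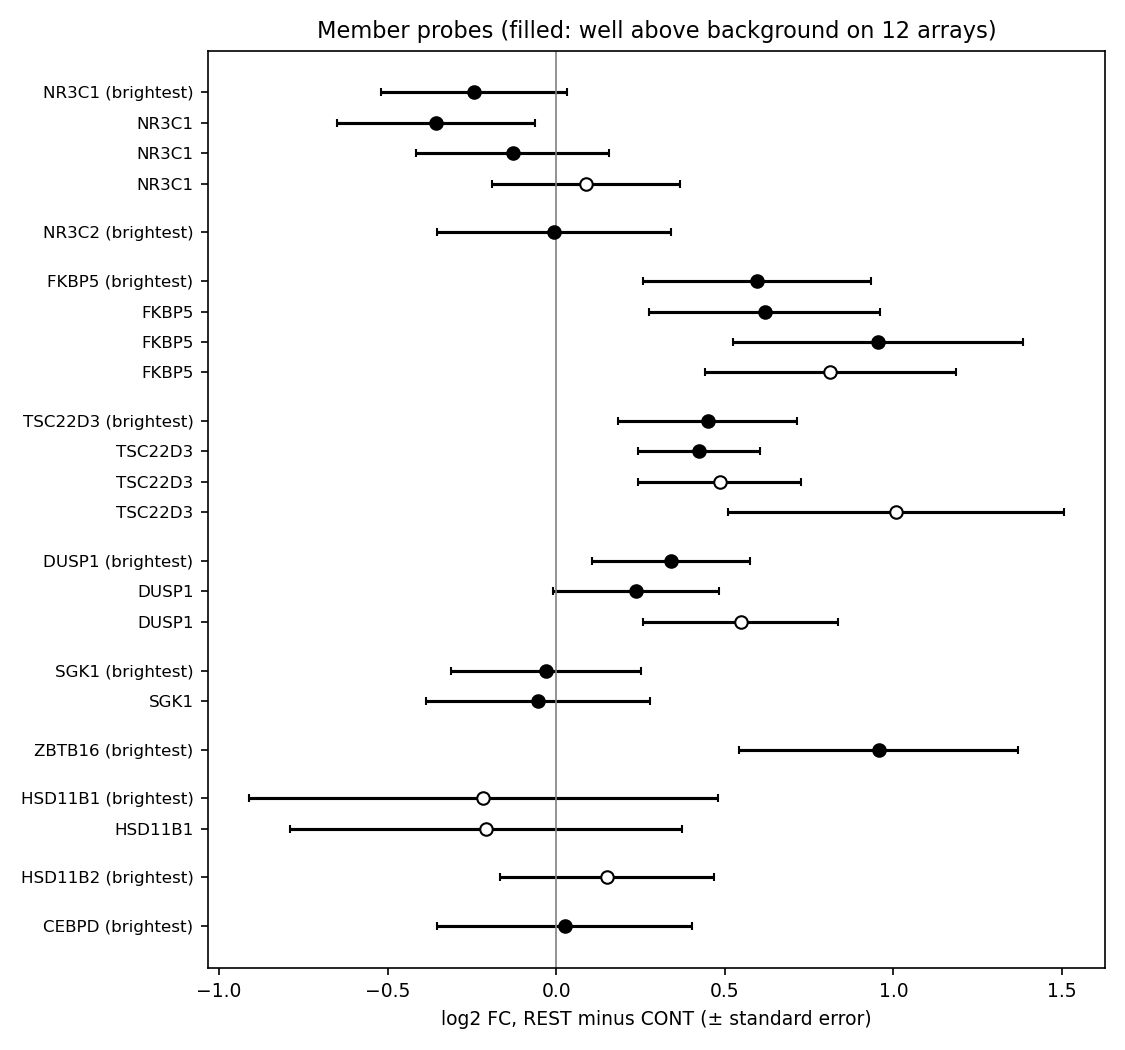
Log2 FC of REST minus CONT with its standard error for the 23 member probes that were well above background on at least 1 array of each diet, with filled points for probes well above background on all 12 arrays. All probes of FKBP5, TSC22D3, DUSP1 and ZBTB16 lie to the right of 0, between 0.24 and 1.01.

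SGK1 and CEBPD respond to glucocorticoids and also to inflammatory signals, and their log2 FC were smaller than their standard errors. SGK1 (NM_001102033), a kinase that increases sodium channel activity, ranged from 0.33 to 1.49 in CONT (median 0.60) and from -0.23 to 1.14 in REST (median 0.88). REST cows 2 and 5 were the lowest cows and CONT cow 6 the highest. The diets differed by a log2 FC of -0.03 (SE 0.28, exact permutation p = 0.931). It was 0.65, -0.54 and 0.10 within slides, and it was 0.07 with slide as a block. The second probe gave -0.05, and the third was not well above background on any REST array. CEBPD (NM_174267), a transcription factor of the acute-phase response, ranged from 4.36 to 5.69 in CONT (median 4.81) and from 3.48 to 5.85 in REST (median 5.14). REST cow 2 lay well below the other 5 REST cows, which were between 4.99 and 5.85. The diets differed by a log2 FC of 0.03 (SE 0.38, exact permutation p = 0.957), and it was negative in 7 of the 12 fits that left out 1 cow. With slide as a block it was 0.27 (SE 0.38).

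The 10 genes did not spread over the cows evenly. REST cow 6 held the highest value of 5 genes (FKBP5, TSC22D3, DUSP1, ZBTB16 and CEBPD) and the lowest NR3C1. REST cow 2 held the lowest value of 3 genes (SGK1, HSD11B1 and CEBPD). CONT cow 3 held the highest value of both receptors. REST cow 6 also had the highest mean of the 5 macrophage markers, 2.13 against -0.12 to 1.44 in the other 11 cows, and a neutrophil marker mean of 2.47, close to the 2.58 of CONT cow 1. REST cow 2 had the lowest means of both lists, -0.12 and -1.54. Between the diets these marker means overlapped, from 0.34 to 1.41 in CONT and from -0.12 to 2.13 in REST for macrophages, and from 0.21 to 2.58 and from -1.54 to 2.47 for neutrophils. Of the endothelial markers, all 5 had a higher mean in REST, where 43.5% of named genes were higher. The mean of these markers was far lower in CONT cow 6 than in any other cow, at -1.68. It was 0.14 to 0.52 in the other CONT cows and -0.11 to 0.91 in REST. Among the 5 markers VWF had a log2 FC of 0.79 (SE 0.30, unadjusted limma p = 0.0227, exact permutation p = 0.00433). CONT cow 6 was also the lowest cow for VWF, at 0.12. Within slides VWF was 0.61, 0.11 and 1.71, the last on the slide of CONT cow 6. With slide as a block VWF was 0.90 (SE 0.32). The part of these cells in the values of the 10 genes was not tested.

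**Figure D3:**
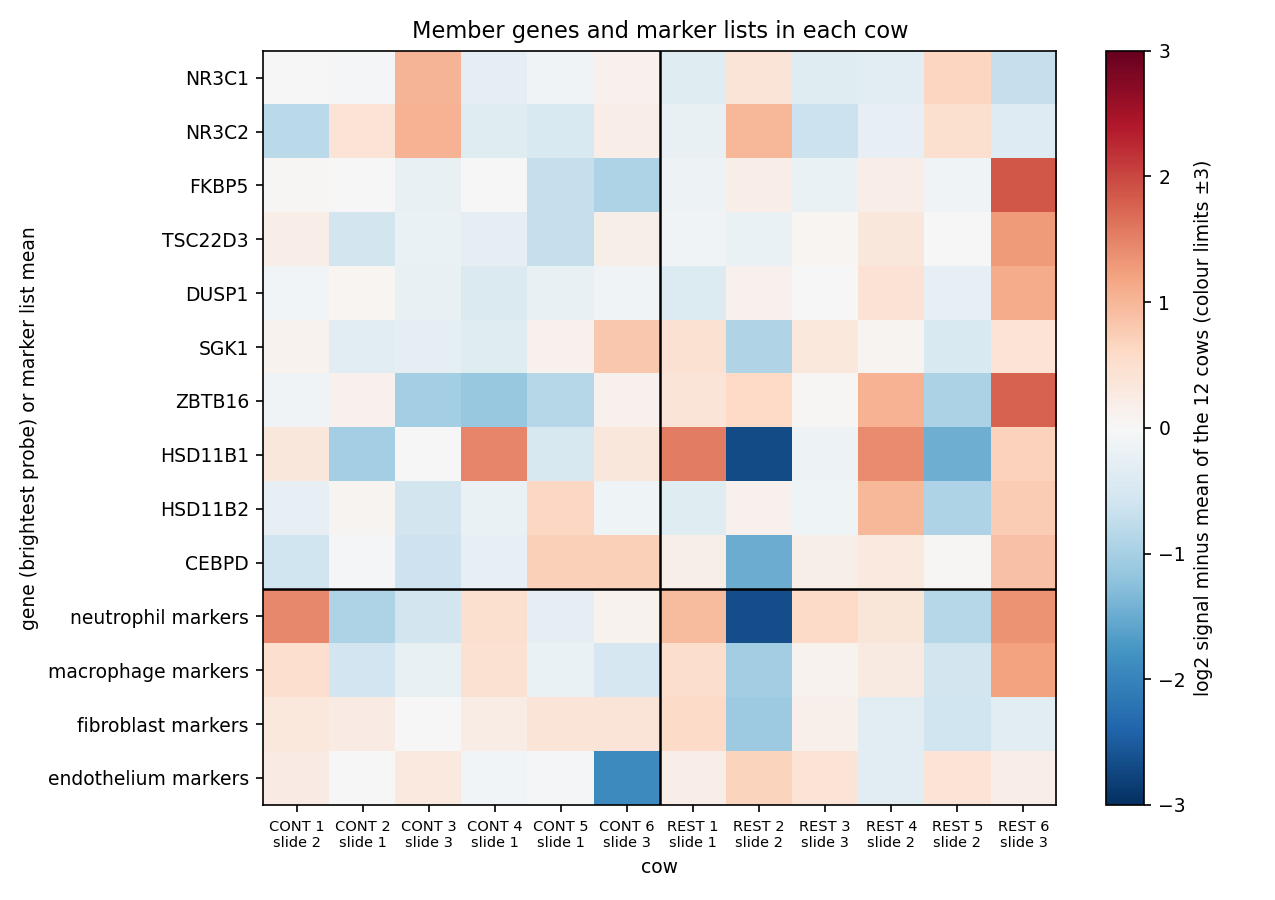
Log2 signal of the 10 genes and mean log2 signal of 4 marker lists in each cow (columns, with the slide), each as the difference from the mean of the 12 cows. REST cow 6 is high for FKBP5, TSC22D3, DUSP1, ZBTB16 and the neutrophil and macrophage markers, and REST cow 2 is low for SGK1, HSD11B1, CEBPD and the same markers.

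Leaving out REST cow 6 lowered the log2 FC of FKBP5 from 0.60 to 0.29, of TSC22D3 from 0.45 to 0.24 and of DUSP1 from 0.34 to 0.16. The log2 FC of these 3 genes and of ZBTB16 stayed positive in each of the 12 fits without 1 cow. The number of the 10 genes with an unadjusted p under 0.05 was 0 without REST cow 6. It was also 0 without CONT cow 3, 4 or 5 and without REST cow 1, 2 or 4.

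**Figure D4:**
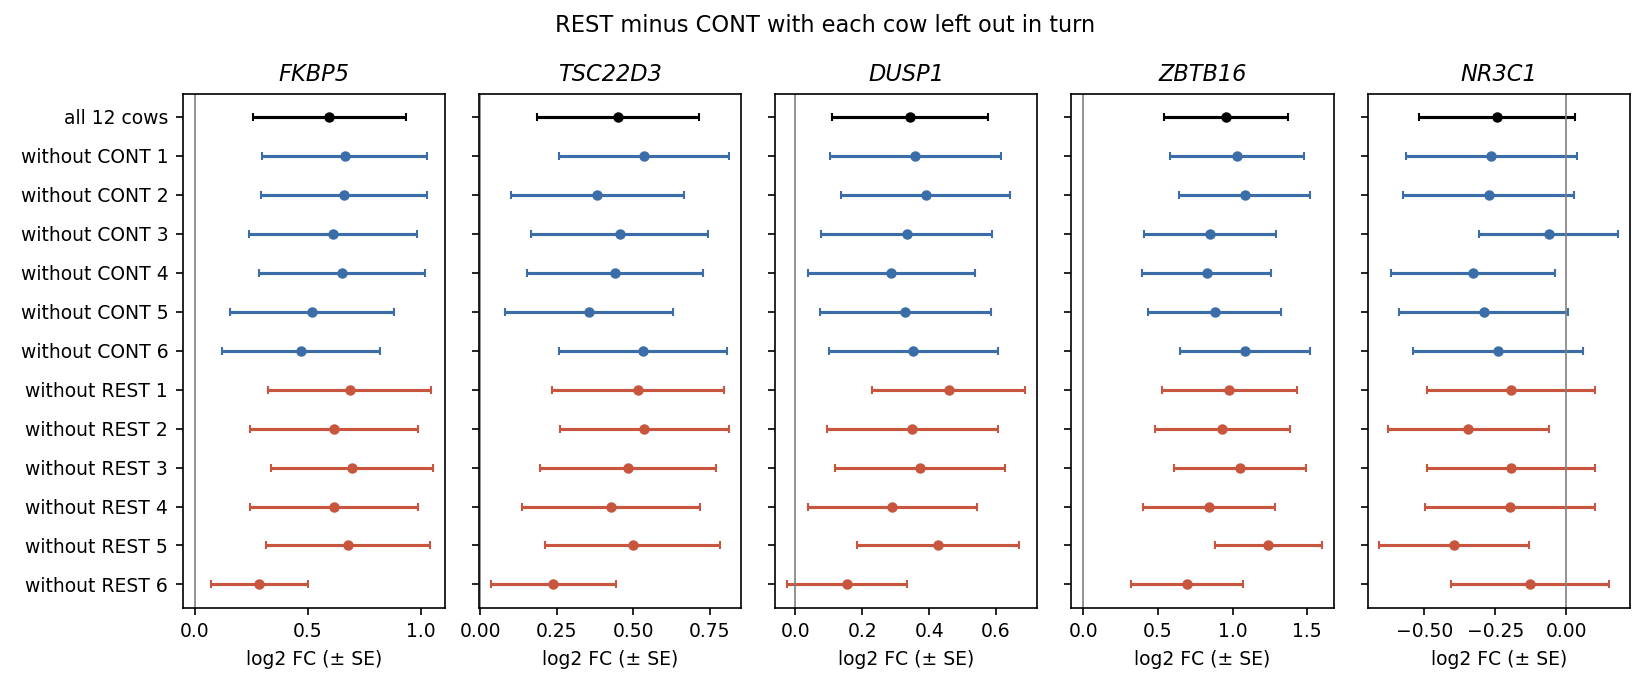
Log2 FC of REST minus CONT with its standard error for FKBP5, TSC22D3, DUSP1, ZBTB16 and NR3C1, with all 12 cows and with each cow left out in turn. FKBP5, TSC22D3, DUSP1 and ZBTB16 are lowest without REST cow 6 (0.29, 0.24, 0.16 and 0.70), and NR3C1 is nearest to 0 without CONT cow 3 (-0.06).

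The genes were compared with each other over the 12 cows, for the 28 pairs of the 8 genes whose brightest probe was well above background on every array. After Benjamini-Hochberg adjustment over these pairs, 3 had a Pearson permutation p under 0.05. DUSP1 and ZBTB16 had r = 0.841 (permutation p = 0.00038, adjusted 0.0106) and rho = 0.741 (permutation p = 0.00772, adjusted 0.164), and r was 0.861 within CONT and 0.828 within REST. The 2 receptors had r = 0.789 (permutation p = 0.00236, adjusted 0.0272) and rho = 0.636 (permutation p = 0.0297, adjusted 0.223), with 0.781 within CONT and 0.858 within REST. SGK1 and CEBPD had r = 0.775 (permutation p = 0.00291, adjusted 0.0272) and rho = 0.713 (permutation p = 0.0117, adjusted 0.164), with 0.65 within CONT and 0.855 within REST. No pair passed by Spearman's rho on these values. With slide and diet removed, rho was 0.825 for DUSP1 and ZBTB16 and 0.832 for the receptors, given with no test because that fit leaves fewer free values than cows. Without the 2 cows farthest from the median of the first gene, r was 0.587 for DUSP1 and ZBTB16 (permutation p = 0.0782), 0.641 for the receptors (permutation p = 0.0466) and 0.536 for SGK1 and CEBPD (permutation p = 0.113). As deviations from the diet means, r was 0.806, 0.816 and 0.776 in the same order, and 0.929, 0.732 and 0.540 without the 2 farthest cows of those values. With slide and diet removed, r was 0.808, 0.840 and 0.727. Each slide held 4 cows, too few for a value of its own. Without REST cow 6, r was 0.735, 0.801 and 0.756, and none of the 28 pairs passed the adjustment over the 11 cows left.

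FKBP5 was close to TSC22D3 and DUSP1 within REST (r = 0.935 and 0.913, 6 cows) and not within CONT (r = -0.06 and 0.03, 6 cows). The difference between the diets in these values was not tested. Over all 12 cows r was 0.740 (permutation p = 0.0268, adjusted 0.094) and 0.818 (permutation p = 0.0103, adjusted 0.0538), and over the 11 cows without REST cow 6 it was 0.156 and 0.369. With slide and diet removed it was 0.748 and 0.797, with no test. NR3C1 and TSC22D3 had r = -0.398 (permutation p = 0.2, adjusted 0.33), which was -0.324 as deviations from the diet means, -0.709 with slide and diet removed and -0.07 without REST cow 6. Of 8999 genes well above background on every array, those most like FKBP5 over the 12 cows were LOC515358 (r = 0.942), LOC515697 (r = 0.879), DEPP1 (r = 0.878), CRAT (r = 0.875) and MPST (r = 0.872). As deviations from the diet means, r was 0.936, 0.863, 0.903, 0.839 and 0.871 in the same order, and without REST cow 6 it was 0.819, 0.582, 0.667, 0.605 and 0.543. These are descriptions of 12 cows with no test. DEPP1 is a FOXO-induced gene of the fasting response, CRAT is carnitine acetyltransferase and MPST is a sulfurtransferase of cysteine breakdown.

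The other genes of the pathway were taken from 6 lists, of which 78 of 93 genes were matched. None of the 78 was called by either adjustment, and 6 had an unadjusted p under 0.05. By direction, 1.63% of all named genes had an unadjusted p under 0.05 and a higher mean in REST, and 1.01% a lower one. The lists were chosen with earlier results of these data known, so their counts are no test against these shares. Among the chaperones of the receptor, 9 of 10 genes had a lower mean in REST and none had an unadjusted p under 0.05. With slide as a block STIP1 (7e-04), HSPA8 (0.01) and CDC37 (0.09) turned to a positive log2 FC. Without the block, the median log2 FC of the list was -0.10. The largest was that of PPID, a cyclophilin cochaperone, at -0.38 (SE 0.26, exact permutation p = 0.186), and ST13, the HSP70-interacting protein, was the 1 gene with a higher mean, at 0.04 (SE 0.15), from 5 CONT and 6 REST arrays. Of the coregulators, 6 of 12 were matched, with 4 higher and 2 lower and none under 0.05. CREBBP, a histone acetyltransferase, had a log2 FC of 0.23 (SE 0.19) and HDAC2, a histone deacetylase, of -0.18 (SE 0.18). With slide as a block PPID came to -0.23 and CREBBP to 0.09. In the list of steroid supply and clearance, 7 of 10 were matched and 3 were well above background on every array. SRD5A1, a steroid 5-alpha reductase that clears cortisol, had a log2 FC of -0.40 (SE 0.32, exact permutation p = 0.301), and HSD3B1, an enzyme of steroid synthesis, passed the background call on none of the arrays.

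Of 29 other genes that glucocorticoids induce, 21 had a higher mean in REST and 8 a lower one, with a median log2 FC of 0.21. Of these, 3 had an unadjusted p under 0.05, all with a higher mean in REST. Each of the 3 is also controlled by other signals of feeding or the day, and the part of any signal was not tested. PDK4, the kinase that shuts pyruvate dehydrogenase in fasting, ranged from 2.36 to 3.58 in CONT (median 2.95) and from 4.08 to 7.0 in REST (median 4.91). The diets did not overlap. PDK4 had a log2 FC of 2.23 (SE 0.46), with an unadjusted limma p of 0.00036, an exact permutation p of 0.00216, the smallest that 6 against 6 cows allow, and a Westfall-Young adjusted p of 0.94. ANGPTL4, an inhibitor of lipoprotein lipase that is also a PPAR target, had a log2 FC of 1.83 (SE 0.59, exact permutation p = 0.0216), with all 6 REST cows above the CONT mean. PER1, a clock gene, had a log2 FC of 0.67 (SE 0.30, exact permutation p = 0.0671, unadjusted limma p = 0.045). With slide as a block PER1 came to 0.54 (SE 0.31) with its unadjusted p above 0.05. In that fit CD163, a scavenger receptor that is also a macrophage marker, came under 0.05 at 1.09 (SE 0.43). The count thus stayed at 3, with CD163 in the place of PER1, against 1.95% of named genes higher and under 0.05 in that fit. For CD163, REST cow 6 stood highest at 0.01, against -1.39 in the next cow, and 2 of 6 REST cows lay below the CONT mean. Within slides CD163 was 1.01, -0.29 and 2.18, the last on the slide of REST cow 6. TAT, tyrosine aminotransferase of the liver, had the lowest log2 FC at -1.64 (SE 1.02, exact permutation p = 0.195), with the background call passed on 4 arrays of CONT and 2 of REST, and it was -0.44 (SE 0.73) with slide as a block.

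Among 20 inflammatory genes that glucocorticoids repress, 15 had a lower mean in REST and 5 a higher one, with a median log2 FC of -0.14. Of the 20, 10 were well above background on every array. With slide as a block the log2 FC turned positive for IL1B (0.02), CXCL8 (0.20), ICAM1 (0.29), CXCL3 (0.06) and IRF1 (0.05). It also turned positive for CCL20 and MMP3, which passed the background call on no CONT array, and negative for NOS2 (-0.01). Lower genes were then not the majority of the list. Without the block, IL1A and PTGS2, lower in REST, and MMP1, higher in REST, had an unadjusted p under 0.05. IL1A, the cytokine interleukin-1 alpha, ranged from -3.85 to -2.87 in CONT (median -3.42) and from -5.34 to -3.51 in REST (median -3.97), with all 6 REST cows below the CONT mean. Its log2 FC was -0.78 (SE 0.30, exact permutation p = 0.0173), and it passed the background call on 5 arrays of CONT and 3 of REST. PTGS2, the inducible prostaglandin synthase COX-2, had a log2 FC of -0.80 (SE 0.29, exact permutation p = 0.026), also with all 6 REST cows below the CONT mean. With slide as a block IL1A and PTGS2 became -0.55 (SE 0.27) and -0.48 (SE 0.24), and the unadjusted p of both was then above 0.05. In the same fit CCL5, a chemokine of T cells and monocytes, came under 0.05 at 0.98 (SE 0.40), higher in REST. MMP1, an interstitial collagenase made by fibroblasts and macrophages, had a log2 FC of 1.1 (SE 0.38, exact permutation p = 0.026), with 5 of 6 REST cows above every CONT cow. With the mean over the probes of a gene in place of the brightest probe, no gene of the list had an unadjusted p under 0.05 in either direction. CXCL2, a neutrophil chemoattractant, had the lowest log2 FC of the list at -1.08 (SE 0.88), and it was -0.02 with slide as a block. The background call for CXCL2 was passed on 6 arrays of CONT and 3 of REST.

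Of the ion transport genes that respond to mineralocorticoids, 6 of 8 were matched, 2 with a higher and 4 with a lower mean in REST, and none had an unadjusted p under 0.05. SCNN1A and SCNN1B, subunits of the epithelial sodium channel, had log2 FC of 0.44 (SE 0.45) and -0.49 (SE 0.70). SCNN1B was -0.12 (SE 0.78) with slide as a block. KCNJ1, a potassium channel counted among the 4 lower genes, passed the background call on none of the arrays. Its sign alone in this list turned with slide as a block, to positive.

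**Figure D5:**
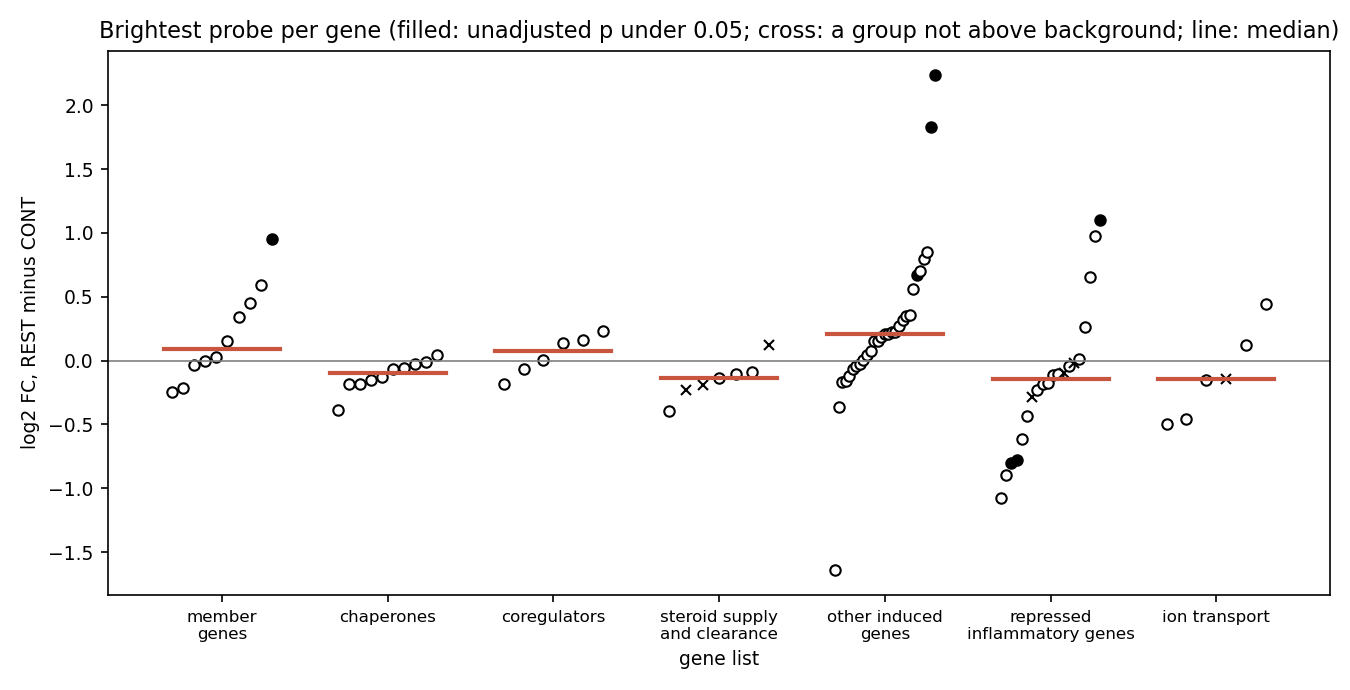
Log2 FC of REST minus CONT for the brightest probe of each member gene and of each gene in the 6 lists, with filled points for an unadjusted limma p under 0.05, crosses for genes that passed the background call on no array of 1 diet or both, and a line at the median. PDK4 (2.23) and ANGPTL4 (1.83) lie far above the other induced genes, and the medians of the lists lie between -0.15 and 0.21.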

How the data were processed

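RNA from 50 mg of MG was labeled with Cy3 (100 ng per array) and hybridized to bovine one-color Agilent arrays, with 1 array per cow. Per the file headers, the authors processed the scans with Feature Extraction 11.0.1.1, and the deposited values are background-corrected intensities, not normalized between arrays. The deposited matrix holds the same intensities. Of 45220 spots, 43803 were not controls, and 205 of 43653 probes had outlier spots set to missing on at least 1 array. Diets came from the sample labels. Nothing but the label of the cow separates replicates, so 1 cow is 1 replicate.

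Values are log2 intensities minus the 75th percentile of the array. REST and CONT were compared in limma (version 3.58.1, R 4.3.3; lmFit and eBayes, two-sided) over all probes. Adjusted p-values are Westfall-Young step-down over 100 distinct splits of the cows and, beside it, Benjamini-Hochberg, both with a threshold of 0.05. Exact permutation tests of single probes used all 462 splits and were two-sided, and correlations used 100000 permutations (numpy 2.4.6). A gene is represented by its probe with the highest mean signal.

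Named genes were the members, list genes with an unadjusted p under 0.05 or the largest difference of their list in either direction, and the 5 genes closest to FKBP5. Cow positions, marker genes and CD163, CCL5 and KCNJ1 were named after their values were seen. The members and lists were chosen with earlier results of these data known. The RefSeq table (assembly ARS-UCD2.0) differs from the build of the array annotation, so no positions are given. Marker genes matched for 48 of 52. The precision is limited by 6 arrays per diet. Tests were checked on simulated data. Alternatives were quantile normalization, normexp (offset 50), the deposited matrix, outlier spots kept, slide as a block, an intensity trend, a filter on dim probes, the mean over probes of a gene, and each cow left out. Promoters, proteins and probe sequences were not used here. Figures were drawn with matplotlib 3.10.9.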

Additional observations from a re-analysis of the deposited data

Results flagged for a closer look

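In 10 of 82 groups, 1 cow stood apart from the others by Dixon's ratio of the gap to the range. Each group was a diet at 1 of the 25 member probes or at 1 of 16 list genes named for their p or their difference. For independent groups chance gives about 1 in 20, or 4.1 groups. These groups share the same cows and include several probes of 1 gene, so the 10 cannot be tested against the 4.1. REST cow 6 was apart in 3 of them, at the brightest FKBP5 probe (4.58, next cow 2.93, ratio 0.805), the second FKBP5 probe (4.55, next 2.99, ratio 0.739) and the brightest TSC22D3 probe (2.34, next 1.40, ratio 0.635). CONT cow 3 was apart at 2 NR3C1 probes, with 3.86 against 2.97 (ratio 0.674) and 0.43 against -0.39 (ratio 0.651). CONT cow 2 was apart at the second DUSP1 probe, at 2.02 against 1.39 (ratio 0.808), and not at the brightest one. REST cow 2 was low for CEBPD, at 3.48 against 4.99 (ratio 0.637). Among the list genes, REST cow 1 was low for CREBBP (-0.41, ratio 0.629), REST cow 3 was high for HDAC2 (-0.51, ratio 0.633) and CONT cow 6 was low for SCNN1A (-0.18 against 1.72, ratio 0.667). Of the 82 groups, 81 held 6 cows, and ST13 in CONT held 5.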

How the results depend on the processing

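No member gene and no probe was called by Westfall-Young under any alternative for which the calls were counted, which leaves out the mean over the probes of a gene, nor by Benjamini-Hochberg, which was counted on the reported fit alone. The lowest Westfall-Young adjusted p over all probes was 0.26, or 0.08 among the 26677 probes kept by the filter on dim probes. The number of member genes with an unadjusted p under 0.05 was 1, and became 0 with slide as a block and 3 with the mean over the probes of a gene (FKBP5 at a log2 FC of 0.745, TSC22D3 at 0.592 and ZBTB16 at 0.956). It was 0 to 1 with 1 cow left out. The sign turned for CEBPD under quantile normalization (-0.00147), for HSD11B2 under normexp (-0.0685), and for SGK1 (0.0708) and HSD11B1 (0.13) with slide as a block. The cause was not tested. With 1 cow left out, the log2 FC ranged from -0.395 to -0.0622 for NR3C1, -0.204 to 0.2 for NR3C2, 0.285 to 0.695 for FKBP5, 0.238 to 0.535 for TSC22D3, 0.155 to 0.458 for DUSP1, -0.125 to 0.149 for SGK1, 0.697 to 1.24 for ZBTB16, -0.545 to 0.3 for HSD11B1, -0.0326 to 0.352 for HSD11B2 and -0.149 to 0.325 for CEBPD. The number of members higher in REST was 5 to 8 and their median 0.00532 (without REST cow 4) to 0.313 (without REST cow 2). Of the repressed inflammatory genes with an unadjusted p under 0.05, 1 was higher and 2 lower, and these counts were 0 and 0 with the mean over probes, and 2 and 0 with slide as a block. Among the induced genes, 1 was lower without REST cow 6, an alternative chosen after seeing the data. The pairs that passed were 3, and were 6 with slide and diet removed (with permutations that ignore the degrees of freedom this fit takes, so that no pair is read from this count), 7 under quantile normalization and 0 without REST cow 6, also chosen after seeing the data. No paired analysis was made, because the deposited sample descriptions give every cow the same replicate number. The cow numbers used here follow the order of the samples and pair no CONT cow with a REST cow.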

Other observations

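CYP11A1, which makes pregnenolone from cholesterol in the first step of steroid synthesis, varied more between cows than between diets. It had 2.47, -1.64, -3.95, -0.68, 3.12 and 3.49 log2 units in CONT cows 1 to 6, and 1.48, -4.92, 3.66, 3.08, -1.52 and 0.39 in REST cows 1 to 6. The SD was 3.02 in CONT and 3.19 in REST, and the log2 FC was -0.11 (SE 1.6, exact permutation p = 0.961). The background call was passed on 6 arrays of CONT and 5 of REST. It was picked for these values after they were seen.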
